A study of Mus musculus with 4 samples.

Results

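The factors examined here are the 10 transcription factors and cofactors that set up the erythroid and megakaryocyte lineages, Gata1, Klf1, Tal1, Nfe2, Fli1, Gfi1b, Zfpm1, Lmo2, Ldb1 and Bcl11a, followed in whole tibial bone marrow of obese mice with and without exercise. They were chosen by name, and each name matched a single gene, which gives 10 of the 55401 genes in the tables. The libraries came from wild-type C57/B6 male mice that received a high-fat diet (HFD) from the age of 8 weeks. After 6 weeks of diet, the obesity group (Ob, 2 libraries) stayed on the HFD alone. The exercised obese mice (Ob + Exe, 2 libraries) kept the same HFD and had treadmill running of moderate intensity for 12 weeks, on 6 days of each week and for 1 h a day. All 4 libraries therefore carry the diet, and the comparison asks what exercise changed in marrow under the HFD.

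These factors act as a circuit. GATA1 is the DNA-binding factor that red cell and megakaryocyte precursors share, and FOG1, the product of Zfpm1, is the cofactor through which it works in both. TAL1 joins GATA1 through the bridging proteins LMO2 and LDB1, while KLF1 drives the red cell branch, FLI1 the megakaryocyte branch, and NF-E2 the late genes of both. GFI1B and BCL11A are zinc finger repressors, and BCL11A is best known for silencing embryonic and fetal globin genes, although it also serves B cells and dendritic cells.

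The values were FPKM (fragments per kilobase of transcript, relative to library size) computed by the authors, summed over the transcripts of each gene and scaled between libraries. The depth was 53038186 and 50423542 read equivalents in Ob against 44310505 and 46668748 in Ob + Exe. Read equivalents are coverage times length divided by the read length of 150 bases. Genes above 0 numbered 23309 and 20663 in Ob against 17752 and 19291 in Ob + Exe. Both counts were lower in each Ob + Exe library. Their part in the differences between the groups was not tested. The labels give bone marrow as the tissue, yet list a stem cell of mesenchymal origin as the cell line and fibroblast as the cell type. Of 9 stromal markers, Cxcl12 reached 88.4 to 142 scaled FPKM, and the other 8 stayed between 0.215 and 7.32, whereas the beta globin gene Hbb-bs lay between 17443 and 43528 and the neutrophil gene S100a8 between 11901 and 35869. The libraries thus read as whole marrow rich in red cell and neutrophil RNA. In such bulk samples, fewer cells of a type and less RNA per cell cannot be told apart. The Ob + Exe libraries were the least alike pair, with a Pearson correlation of 0.9 over 12409 genes, against 0.949 for the Ob pair. Pairs across the groups gave 0.909 to 0.948, the highest being the first Ob with the second Ob + Exe library. The libraries thus did not separate by group in correlation. The study's RNA-Seq took marrow of 2 of the 9 mice in each group, and 2 libraries against 2 give no two-sided exact permutation p below 0.333.

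The sequences that precede the start of 4 of the factors are shown because the circuit is built on factors that bind each other's genes. They come from RefSeq (GRCm38.p6), which held promoter windows for 7 of the 10 factors. Fli1, Lmo2 and Nfe2 were not among them. Each runs 5′ to 3′ along the gene and stops before the transcript start it belongs to. Capitals mark AGATAA or TGATAA, words that GATA factors read, on either strand (the reverse strand gives TTATCT or TTATCA). Only these, called GATA words below, were searched, so variants such as AGATAG are neither marked nor counted. The windows are chrX:7967911-7968160 (minus strand) for Gata1, chr8:84901732-84901927 (plus strand) for Klf1, chr4:115056176-115056425 (plus strand) for Tal1 and chr2:28621983-28622232 (minus strand) for Gfi1b.
Gata1: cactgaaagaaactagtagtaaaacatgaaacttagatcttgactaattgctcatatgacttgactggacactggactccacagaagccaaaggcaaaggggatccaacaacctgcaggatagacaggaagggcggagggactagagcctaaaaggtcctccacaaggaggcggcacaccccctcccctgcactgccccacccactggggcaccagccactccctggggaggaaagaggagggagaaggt
Klf1: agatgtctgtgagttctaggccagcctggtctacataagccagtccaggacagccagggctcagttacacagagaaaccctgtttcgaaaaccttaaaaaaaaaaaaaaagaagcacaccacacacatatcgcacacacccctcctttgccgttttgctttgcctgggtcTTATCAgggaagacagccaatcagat
Tal1: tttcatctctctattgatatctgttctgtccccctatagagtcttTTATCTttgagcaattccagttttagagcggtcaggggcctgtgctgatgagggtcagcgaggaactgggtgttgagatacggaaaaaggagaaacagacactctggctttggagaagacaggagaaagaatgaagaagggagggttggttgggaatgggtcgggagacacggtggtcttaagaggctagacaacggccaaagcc
Gfi1b: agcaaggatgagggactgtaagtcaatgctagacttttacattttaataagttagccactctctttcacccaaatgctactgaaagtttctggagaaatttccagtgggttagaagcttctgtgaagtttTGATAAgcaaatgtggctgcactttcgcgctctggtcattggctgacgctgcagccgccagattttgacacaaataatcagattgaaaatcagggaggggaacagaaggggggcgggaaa

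The windows of Klf1, Tal1 and Gfi1b hold 1 GATA word each, and the window of Gata1 holds none. Over the 250 bases before the RefSeq start, 4 of the 7 factors with a window have at least 1 such word, the fourth being Ldb1 at an inner start. In the windows of the same length of all genes tested, 12.4% of 11622 genes have it. The KLF words CCACACCC or CCCACCC, searched on both strands, were found for 4 of the 7 factors, Gata1 among them, against 24.2% of the genes tested. A word is a description of the letters and not evidence of binding.

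None of the 10 factors was called as changed by exercise, where a call takes both an unadjusted limma p under 0.05 and more than 1 on the log2 scale in either direction. All 10 passed the filter of a mean FPKM of at least 0.1. Over all 18596 genes tested, 3.74% were called, 510 lower and 186 higher in Ob + Exe, and no gene had an adjusted p under 0.05 (smallest 0.738). Ldb1 was the 1 factor with an unadjusted p under 0.05, in limma and also in limma voom on read equivalents, which likewise called 0 factors. By fold change 6 factors lay below 0 and 4 above, where 51.7% of all genes tested lay below 0. The median log2 fold change of the factors was -0.12 against -0.02 for all genes. The groups did not overlap for 3 of the 10, Ldb1 and Lmo2 lower and Tal1 higher, against 32.6% of all genes tested (18.3% lower and 14.3% higher).

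The factors were well expressed. Their mean level fell from Lmo2 (148 scaled FPKM over the 4 libraries) through Nfe2 (142), Klf1 (108), Gata1 (83.1), Tal1 (64.9), Zfpm1 (50.9), Ldb1 (42.5), Gfi1b (38.3) and Fli1 (19.3) to Bcl11a (9.96). Lmo2 ranked 332 and Bcl11a 5817 among the genes tested. The ranges of neighbours from Lmo2 down to Gfi1b overlapped over the libraries, although Nfe2 was above Klf1 within each of the 4, while Gfi1b, Fli1 and Bcl11a were separate from each other in every library.

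**Figure D1:**
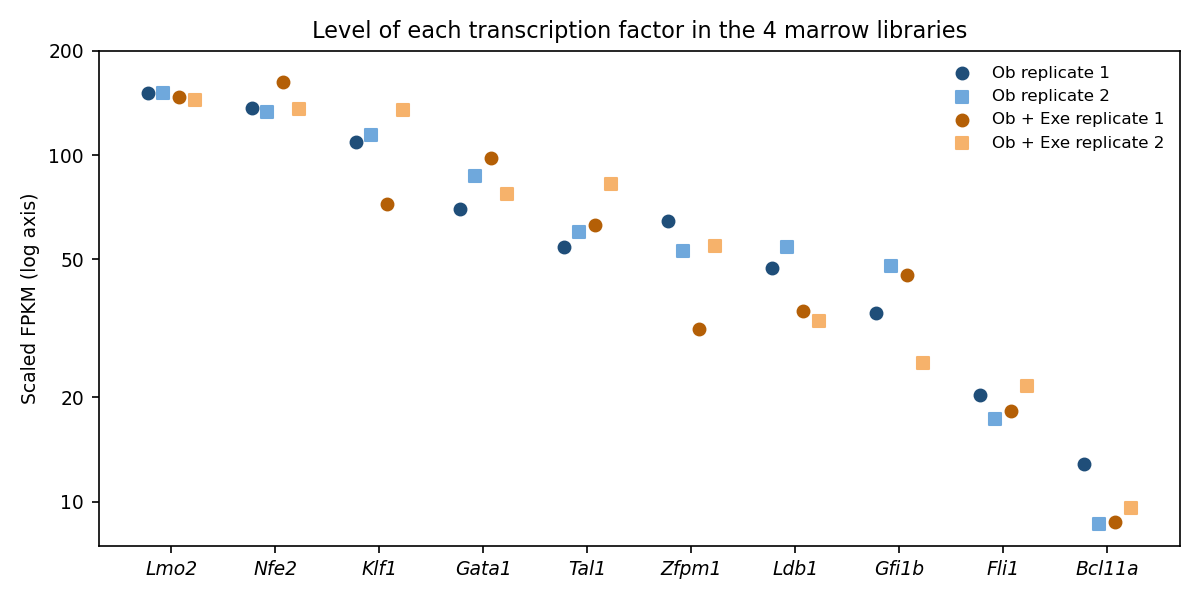
Scaled FPKM (log axis) of the 10 factors in each library, ordered by mean level. Ob libraries are blue, Ob + Exe libraries are orange, and circles and squares are replicates 1 and 2. The 2 Ob + Exe points lie below both Ob points for Ldb1 and Lmo2 and above them for Tal1, and they are farthest apart for Klf1, Gfi1b and Zfpm1.

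Gata1 (ENSMUSG00000031162.14, chromosome X of GRCm38, 7959260 to 7978071, minus strand) gave 69.9 and 87.1 scaled FPKM in the Ob libraries, against 98.3 and 77.2 with exercise. The groups overlapped (log2 fold change 0.16, standard error 0.233, 95% interval -0.42 to 0.73, limma adjusted p = 0.975). The interval runs from 0.75-fold to 1.66-fold, so a change of the size that the call requires lay outside it, but a smaller one in either direction did not. Without the first Ob or the first Ob + Exe library the sign turned (-0.01 and -0.02).

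Zfpm1 (chromosome 8, 122282141 to 122337251, plus strand), the FOG1 gene, gave 64.4 and 52.8 in Ob against 31.5 and 54.7 in Ob + Exe. The first Ob + Exe library was the low one, and the second lay within the Ob values. The mean fell by 26.4% (log2 fold change -0.49, standard error 0.312, 95% interval -1.26 to 0.28, limma adjusted p = 0.959). This size rests on that library, since the log2 fold change was -0.10 without it and -0.90 without the second.

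Klf1 (chromosome 8, 84901928 to 84905295, plus strand), the red cell factor, had the widest gap between replicates. It measured 109 and 114 scaled FPKM in Ob, which are close, and 72.4 and 135 in Ob + Exe, the lowest and highest of the 4. The difference of -0.18 on the log2 scale (standard error 0.325, limma adjusted p = 0.975) did not reach that gap, and it became 0.27 without the first Ob + Exe library and -0.64 without the second. The summed level of 55 erythroid genes stood in the same order at both ends, at 81793 and 82461 in Ob and at 62646 and 92604 in Ob + Exe. Its part in the Klf1 value was not tested.

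Tal1 (chromosome 4, 115056426 to 115071755, plus strand), the helix-loop-helix factor of the complex, gave 54.4 and 59.8 in Ob against 63 and 82.5 with exercise. Both exercise libraries were above both Ob libraries, the first of them narrowly. The mean was 27.5% higher (log2 fold change 0.34, standard error 0.223, 95% interval -0.21 to 0.89, limma adjusted p = 0.959), and with 1 library left out the log2 fold change stayed between 0.13 and 0.52.

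Lmo2 (chromosome 2, 103957986 to 103981878, plus strand), the LIM-only bridge that does not bind DNA itself, was the steadiest of the factors. It gave 151 in both Ob libraries and 147 and 144 with exercise. The exercise libraries were lower, but only by a log2 fold change of -0.06 (standard error 0.192, 95% interval -0.53 to 0.41, limma adjusted p = 0.985).

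Ldb1 (ENSMUSG00000025223.15, chromosome 19, 46031570 to 46045214, minus strand) encodes the LIM-domain-binding protein that dimerizes and loops distant enhancers to their genes. It was at 47.1 and 54.2 scaled FPKM in Ob, 50.6 ± 5.01 (SD, n = 2), and at 35.6 and 33.2 in Ob + Exe, 34.4 ± 1.72 (SD, n = 2). Neither exercise library reached the lower Ob value. The mean fell by 32% (log2 fold change -0.55, standard error 0.201, 95% interval -1.05 to -0.06, limma unadjusted p = 0.0349 and adjusted p = 0.959), which is short of a call. It ranked 654 by p among the genes tested, of which 5.05% had an unadjusted p under 0.05. Each library left out in turn gave -0.66 to -0.46. Under the replicate block the unadjusted p was 0.122 (limma adjusted p = 1, with a range of 0.405 to 1 over the alternatives), and with the transcript of highest mean FPKM alone the log2 fold change was -0.09. Ldb1 shares 177 of its 4606 exonic bases with Pprc1 on the other strand, which gave 11.3 and 14.4 in Ob against 21.5 and 8.84 with exercise. Its part in the Ldb1 value was not tested.

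Gfi1b (chromosome 2, 28609450 to 28621982, minus strand), the repressor that recruits the LSD1 and CoREST complex, spread in both groups. Its level was 35 and 47.9 in Ob against 45 and 25.2 with exercise, so the lowest library was the second Ob + Exe one and the groups overlapped. The estimate was -0.28 on the log2 scale (standard error 0.337, 95% interval -1.11 to 0.55, limma adjusted p = 0.97), and it turned to 0.12 without that library.

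Bcl11a (chromosome 11, 24078056 to 24174123, plus strand) was the lowest of the 10, with 12.8 and 8.64 in Ob against 8.76 and 9.59 with exercise. The first Ob library stood above the other 3, which were close to each other. The log2 difference was -0.20 (standard error 0.286, limma adjusted p = 0.975) and was 0.08 without that library. The gene is also active in B cells. All 8 B lineage markers had a log2 fold change below 0, against 51.7% of all genes tested. Cd79a (-1.04) and Igll1 (-1.67) were called, where 3.74% of all genes tested were. The summed level of the 8 markers was 236 and 251 in Ob against 183 and 145 with exercise. Their part in the Bcl11a value was not tested.

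Fli1 (chromosome 9, 32422204 to 32542861, minus strand), the ETS factor of the megakaryocyte branch, gave 20.3 and 17.3 in Ob against 18.2 and 21.5 with exercise. The groups overlapped, with a log2 difference of 0.08 (standard error 0.226, 95% interval -0.48 to 0.64, limma adjusted p = 0.984). Fli1, Tal1 and Lmo2 are also used by endothelial cells. The 8 endothelial markers together summed to 27.5 and 27.6 in Ob against 27.5 and 17.6 with exercise. All 8 had a log2 fold change below 0, against 51.7% of all genes tested, and none was called. Their part in these values was not tested.

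Nfe2 (chromosome 15, 103248212 to 103258403, minus strand), the large subunit of NF-E2, measured 137 and 133 in Ob against 162 and 136 with exercise. The first exercise library was the high one, and the second lay between the Ob values. The log2 difference was 0.14 (standard error 0.206, limma adjusted p = 0.975) and became -0.001 without that high library. Its small MAF partners Mafg (log2 fold change 0.27) and Mafk (0.14) were not called. Their groups did not overlap, where 14.3% of all genes tested were higher in Ob + Exe without overlap. Maff (0.59), at group means of only 0.289 and 0.443 scaled FPKM, overlapped and was not called either.

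**Figure D2:**
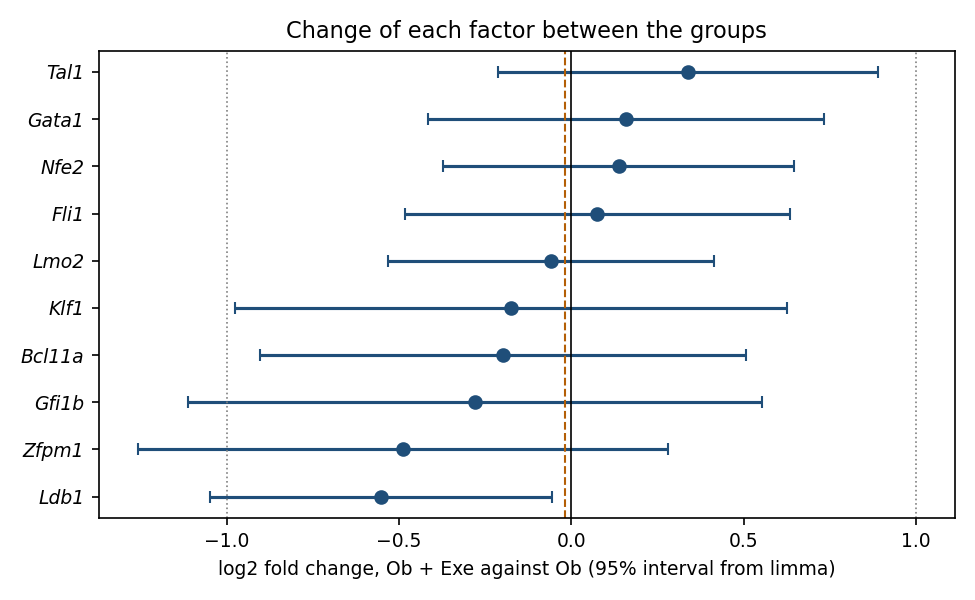
Log2 fold change of each factor, Ob + Exe against Ob, as points with the 95% interval from limma as bars. Dotted lines mark the fold change a call requires, and the dashed line marks the median of all genes tested (-0.02). The interval of Ldb1 is the only one that leaves out 0, and those of Ldb1, Gfi1b and Zfpm1 reach beyond -1.

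By median, single replicates of a group lay at least as far apart as the group means. The median log2 difference between the 2 replicates over the 10 factors was 0.214 in Ob and 0.304 in Ob + Exe, against a median size of the log2 fold change of 0.187. These are unlike measures, since the replicate values compare single libraries and the fold change compares means of 2, which vary less. For 8 of the 10 factors the Ob replicates were closer than the Ob + Exe replicates, the exceptions being Ldb1 and Bcl11a. The 6595 genes with a mean scaled FPKM of at least 8 had the same order, with medians of 0.219 in Ob and 0.366 in Ob + Exe, and 0.91% of them were called.

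Ratios within a library compare factors that oppose or need each other and do not depend on scaling. Klf1 over Fli1, the red cell factor against the megakaryocyte factor, gave 5.36 and 6.54 in Ob against 3.97 and 6.24 with exercise (two-sided exact permutation p = 0.667, adjusted p = 0.833 over 5 ratios). Gata1 over Gata2, the pair that exchanges places as red cell precursors mature, gave 6.97 and 8.45 in Ob against 6.61 and 6.82 with exercise. Both exercise values were below both Ob values, on average by 0.19 on the log2 scale (exact permutation p = 0.333, the smallest possible, adjusted p = 0.833). Lmo2 over Ldb1 gave 3.21 and 2.79 in Ob against 4.11 and 4.32 with exercise, higher by 0.49 on the log2 scale (exact permutation p = 0.333, adjusted p = 0.833). It rests on the Ldb1 values already given. Gata1 over Spi1, the PU.1 gene of the myeloid lineage, ranged from 0.765 to 1.46 in Ob and from 0.843 to 1.37 in Ob + Exe, so the ranges overlapped (exact permutation p = 1). Zfpm1 over Gata1 gave 0.923 and 0.607 in Ob against 0.321 and 0.709 with exercise (exact permutation p = 0.667, adjusted p = 0.833), with the first exercise library as the low one.

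**Figure D3:**
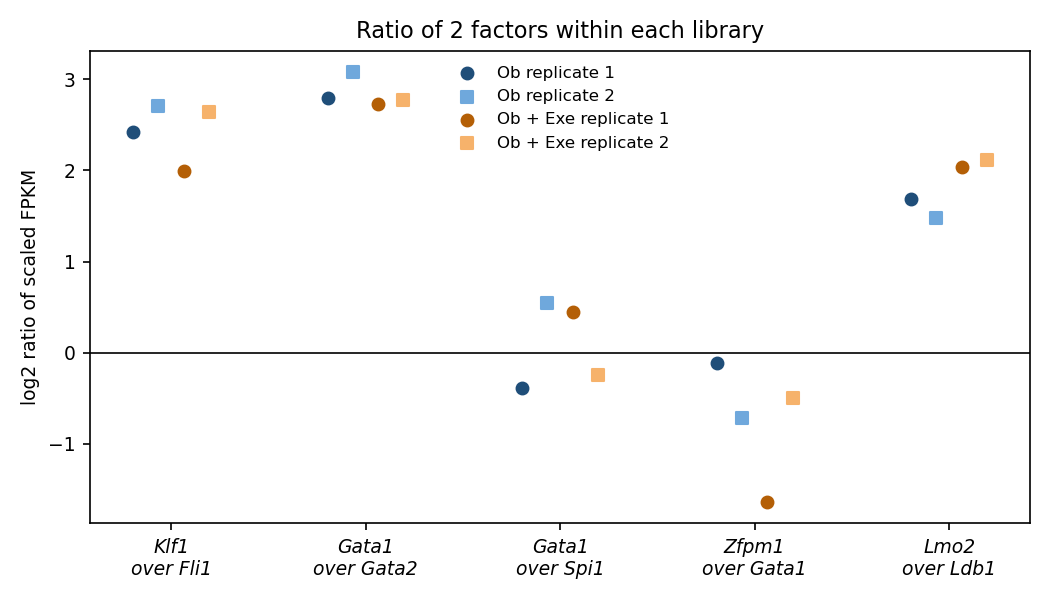
Log2 ratio of the scaled FPKM of 2 factors within each library, Ob in blue and Ob + Exe in orange, circles and squares for replicates 1 and 2. Lmo2 over Ldb1 and Gata1 over Gata2 separate the groups, the first upward and the second downward, and the other 3 ratios overlap.

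Which transcript carried a level was stable for some factors and not for others. The FPKM of the 10 factors was divided among 52 annotated transcripts. Gata1, Tal1, Fli1 and Zfpm1 had a leading transcript with at least 90% of the FPKM of the gene in every library. The leading Gata1 transcript encodes 413 residues in GENCODE vM21. The transcript of Gata1 that starts farther upstream held 0.307% to 1.34%.

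Gfi1b had 2 coding transcripts, of 330 and 363 residues. The longer one held 11.9% and 14.2% of the FPKM in Ob, 46.3% in the first Ob + Exe library and 7.99% in the second. The exercise libraries thus held both the highest and the lowest share. The 33 added codons lie in exonic bases at GRCm38 chr2:28611585-28611683 on the minus strand, shown in capitals with 10 bases of the transcript on each side, because reads over these 99 bases are what tells the transcripts apart in the coding part.
Gfi1b: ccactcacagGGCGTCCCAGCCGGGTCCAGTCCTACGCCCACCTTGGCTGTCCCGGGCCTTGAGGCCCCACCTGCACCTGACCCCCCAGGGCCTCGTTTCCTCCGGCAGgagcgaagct

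Klf1 had 2 transcripts of 3 exons, which differ by only 4 bases in length (1530 and 1534). The second held 5.78% and 11% in Ob against 30% and 0.738% with exercise, again highest in the first exercise library. Both start at 84901928, and they end at 84905291 and 84905295. Few reads are likely to tell them apart, so this split is uncertain.

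Ldb1 was divided among 8 transcripts. The leading one by FPKM, which encodes 319 residues, held 35% and 38.3% in Ob against 51.7% and 52.3% with exercise. Its own deposited FPKM was 17 and 21.6 in Ob against 18.5 and 16.4 with exercise, so for this transcript the groups overlapped. The more abundant of 2 transcripts of 411 residues gave 17.3 and 17.7 in Ob against 17.2 and 4.39 with exercise. The 373-residue transcript was at 7.19 and 9.77 in Ob, is listed at 0 in the first Ob + Exe library and was at 8.2 in the second. A 375-residue transcript was at 4.55 and 1.95 in Ob, is listed at 0 in the first exercise library and was at 0.14 in the second. By read equivalents the longer 411-residue transcript led instead, with a mean of 41.8% against 37.8%, so which Ldb1 transcript leads depends on the measure.

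Nfe2 was carried mostly by a 373-residue transcript, with 75% and 69.1% in Ob against 53.6% and 65% with exercise. A 2-exon transcript of the same 373 residues took 33.4% in the first Ob + Exe library and 7.83% to 12.6% elsewhere. Lmo2 was carried by a 158-residue transcript with 67.3% to 89.8%. Its 228-residue transcript alternated between 1.21% and 17.4% in Ob and between 1.67% and 17.5% in Ob + Exe. A 220-residue transcript of Lmo2 held 9.75% and 5.33% in Ob against 0.0807% and 0.0256% with exercise. The shares of transcripts were not tested. Bcl11a had the most even division, with 30.8% to 41.7% in the 835-residue transcript and 16.1% to 36.8% in the 773-residue one. Its 191-residue transcript was at 4.26 deposited FPKM (32.2%) in the first Ob library, the one where the gene was highest. That transcript was at 1.45 (16%) in the second Ob + Exe library and is listed at 0 elsewhere. At 2092 to 3288 read equivalents for the whole gene, Bcl11a also had the least reads of the 10.

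**Figure D4:**
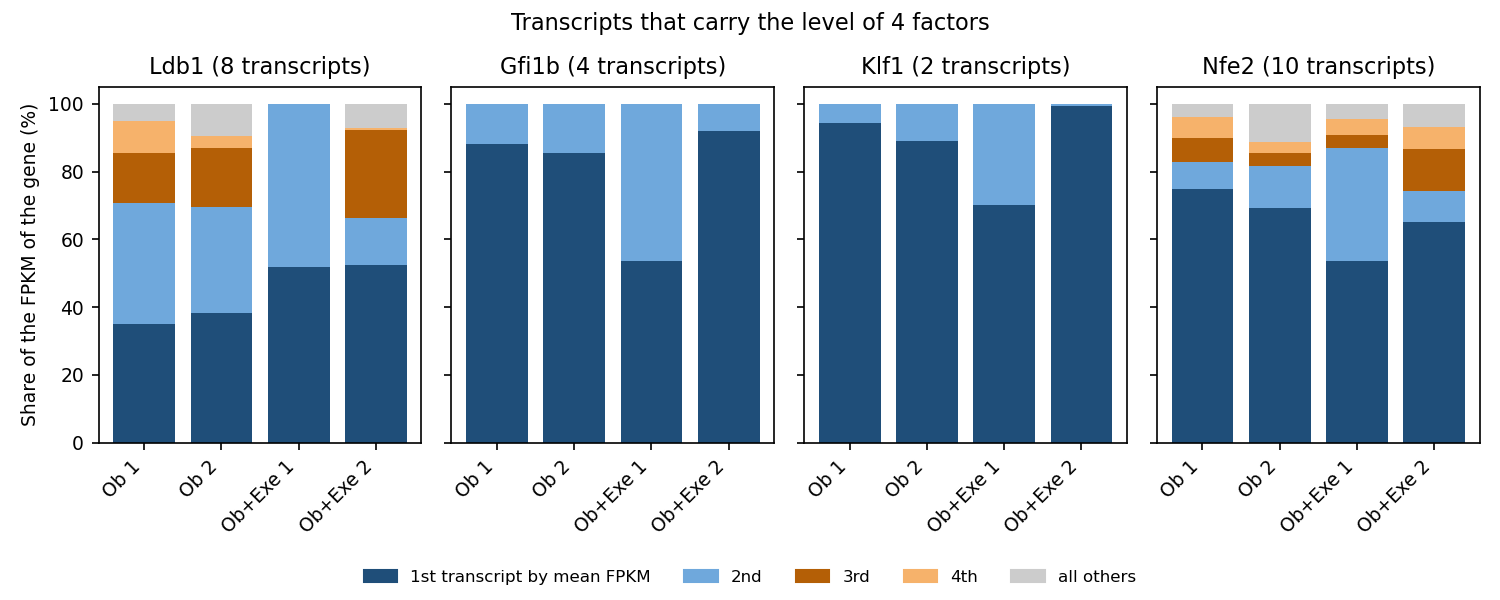
Share of the FPKM of Ldb1, Gfi1b, Klf1 and Nfe2 (percent) held by each annotated transcript in the 4 libraries, stacked in order of mean FPKM, with transcripts after the fourth in grey. The first Ob + Exe library has the largest second segment in all 4 genes, among them 46.3% for Gfi1b and 30% for Klf1. The Klf1 split is uncertain, since its transcripts (1530 and 1534 bases) are nearly alike. The leading Ldb1 transcript takes more in both Ob + Exe libraries.

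Among the partners of the factors no call was made. Of 63 partner and cofactor genes listed, 62 passed the filter and 0 were called in limma, 1 had an unadjusted p under 0.05, and limma voom on read equivalents called 0. Their median log2 fold change was -0.06. Over all genes tested 3.74% were called and 5.05% had an unadjusted p under 0.05. Among genes with a mean scaled FPKM of at least 8, 0.91% were called. The 1 partner gene with an unadjusted p under 0.05 was Ssbp4, a member of the single-stranded DNA-binding proteins that attach to LDB1. It gave 18.2 and 19 in Ob against 12.7 and 9.23 with exercise (log2 fold change -0.78, limma adjusted p = 0.959). Its relatives Ssbp2 (-0.39) and Ssbp3 (-0.14) overlapped between the groups. Gata2, which GATA1 replaces, gave 9.94 and 10.2 in Ob against 14.8 and 11.2 with exercise (log2 fold change 0.35, limma adjusted p = 0.959). E2f2, Mbd2, E2f4 and Lmo4, the highest of the list, ranged from -0.42 to 0.13 in log2 fold change.

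The genes that the factors serve were read as 2 lists, 1 for each branch. Of 56 erythroid genes listed, 55 were tested and 0 were called in limma, with 0 at an unadjusted p under 0.05 and 0 called by limma voom. Their median log2 fold change was -0.03. The shares over all genes tested were 3.74% called and 5.05% at an unadjusted p under 0.05, with 0.91% called at a mean scaled FPKM of at least 8. Alas2, the first enzyme of heme synthesis in red cells, gave 767 and 866 in Ob against 787 and 721 with exercise, and Epor, the erythropoietin receptor, was at 53.3 and 81.6 against 54.9 and 59.3. Both overlapped between the groups. The globin genes spread widely, with log2 fold changes of -0.12 (Hbb-bs), 0.60 (Hbb-bt), -0.16 (Hba-a1) and -0.89 (Hba-a2, limma adjusted p = 0.959), none called, and the near-identical Hba-a1 and Hba-a2 can exchange reads.

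Of 48 megakaryocyte genes, all tested, 16 were called, every one lower in Ob + Exe. This is 33.3% of the list against 2.74% of all genes called lower. The median log2 fold change of the list was -0.77, and 39 of the 48 lay below 0, against 51.7% of all genes tested. The 16 genes had log2 fold changes from -2.85 to -1.02, with adjusted p from 0.941 to 0.959 in limma, so none passed after adjustment. The list was drawn up with earlier results of these libraries known and is not independent evidence of a direction. The count depends on which libraries are included. It was 2 with either Ob library left out, 27 without the first Ob + Exe library and 6 without the second, and the median was -1.27 and -0.30 without the first and second Ob + Exe library.

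Gp1ba, which encodes the chain of the von Willebrand factor receptor that binds the ligand, gave 7.83 and 7.08 in Ob against 3.1 and 1.03 with exercise (log2 fold change -1.99). Gp1bb, a partner chain, was at 10.5 and 11.2 against 2.16 and 4.42 (-1.78). Tubb1, the platelet beta tubulin and a known target of NF-E2, was at 27.6 and 17.9 against 12.5 and 4.88 (-1.50). In each the 2 groups were apart, as in all 16 called genes, where 18.3% of all genes tested were lower without overlap. The 16 were selected by their values in these same libraries, so this separation is a description and not further evidence. The other 13 called genes were Alox12, Slamf1, Itga2, F2rl2, Treml1, Rab27b, Pear1, Clec1b, Trpc6, Gng11, Gp5, F2rl3 and Mpig6b. Pf4 (-0.60), Ppbp (-0.95), Cd9 (0.27) and F13a1 (0.18), the highest of the list, were not called. Itga2b, the integrin chain of platelets, gave 33.8 and 49.7 in Ob against 49.7 and 15.2 with exercise.

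**Figure D5:**
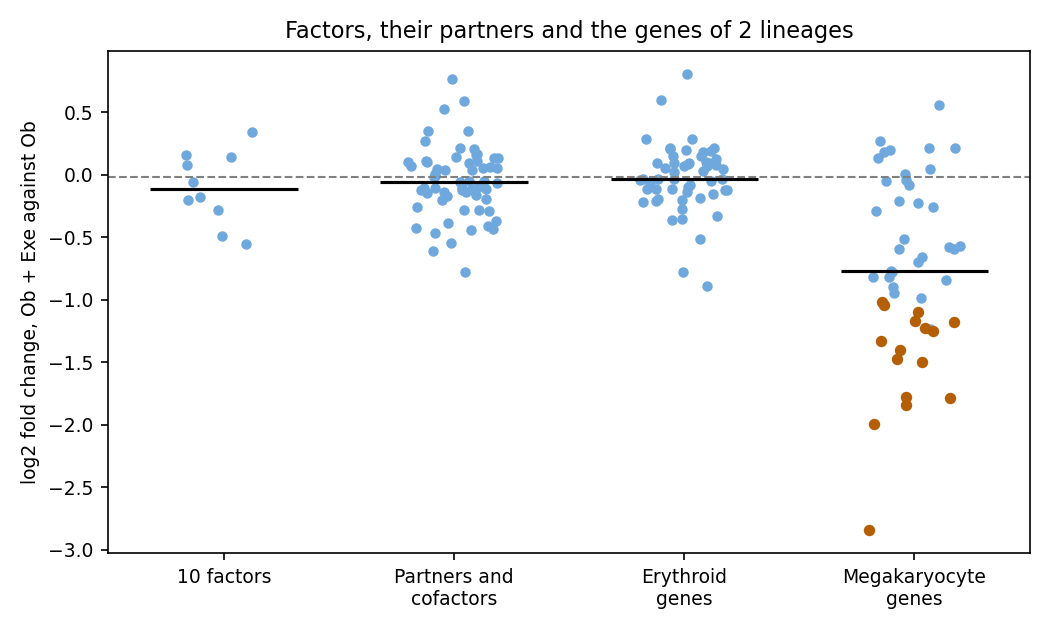
Log2 fold change (Ob + Exe against Ob) of the 10 factors, 62 partner genes, 55 erythroid genes and 48 megakaryocyte genes, with 1 point per gene, called genes in orange and the median of each list as a bar. The dashed line is the median of all genes tested. The 16 called genes are all in the megakaryocyte list, whose median is -0.77, while the other 3 medians lie between -0.12 and -0.03.

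The 16 lower megakaryocyte genes stood beside log2 fold changes of 0.08 for Fli1, 0.16 for Gata1 and 0.14 for Nfe2. Each of these has an interval that includes 0. Over all 10 factors, 6 lay below 0 and 4 above. The lowest were Ldb1 (-0.55), Zfpm1 (-0.49) and Gfi1b (-0.28), and the highest was Tal1 (0.34). The summed megakaryocyte level was 1366 and 1127 in Ob against 1150 and 885 with exercise. Gata1, Tal1, Lmo2 and Nfe2 are also expressed by red cell precursors, and Fli1 is also used by endothelial cells. The level of these factors in whole marrow therefore does not stand for megakaryocytes alone. The difference between the factors and that list was not tested. Of the other marker lists, Prg2 (log2 fold change 1.41) was the 1 call among 8 genes of eosinophils, basophils and mast cells and Col1a1 (-1.02) the 1 among 9 stromal genes. The neutrophil, monocyte, T cell, plasmacytoid dendritic cell and progenitor markers gave 0 calls, where 3.74% of all genes tested were called. The summed neutrophil level was 47115 and 26918 in Ob against 34596 and 63012 with exercise, and its part in the values of the factors was not tested.

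RefSeq windows were found for 14 of the 16 called megakaryocyte genes, and 7 of these hold a GATA word in the 250 bases before the start, against 12.4% of the genes tested. Among the erythroid list, with 0 calls, 19 of 39 genes with a window hold it too (48.7%), and 9 of 39 genes (23.1%) of the whole megakaryocyte list do. The called genes were selected by their values in these same libraries. The share among them is therefore a description, and a link between the word and the lower values was not tested. ETS words (CAGGAA or CCGGAA, both strands), which FLI1 and its relatives read, were found for 6 of the 14, against 44.5% of the genes tested. Gp1ba (chr11:70638872-70639121, plus strand) and Gp5 (chr16:30310782-30311031, minus strand) hold 2 GATA words each and are shown for that reason, with the words in capitals.
Gp1ba: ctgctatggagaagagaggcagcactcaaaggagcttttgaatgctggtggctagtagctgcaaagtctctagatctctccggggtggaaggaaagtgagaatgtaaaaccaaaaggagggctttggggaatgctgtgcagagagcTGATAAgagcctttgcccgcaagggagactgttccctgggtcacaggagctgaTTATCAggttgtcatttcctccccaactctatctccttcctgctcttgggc
Gp5: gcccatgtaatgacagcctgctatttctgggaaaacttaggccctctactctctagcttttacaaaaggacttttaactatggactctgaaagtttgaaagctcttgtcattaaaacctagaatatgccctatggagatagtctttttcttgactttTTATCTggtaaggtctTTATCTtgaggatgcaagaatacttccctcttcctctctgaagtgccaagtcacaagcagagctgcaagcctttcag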

How the data were processed

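Per the study's methods, fastp was used for trimming and rRNA reads were discarded before HISAT2 alignment to GRCm38. SAMtools and then StringTie with Gencode vM25 followed (versions not given in the sources used here). For each transcript and library the authors deposited FPKM and a coverage signal, the latter unadjusted for sequencing depth. The kit is not stated to keep strand, so reads of overlapping antisense genes cannot be told apart.

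FPKM were summed to genes. Genes whose mean FPKM reached 0.1 were kept, scaled with median-of-ratios factors (0.945 to 1.04), and log2(FPKM + 0.1) was tested with limma 3.58.1 in R 4.3.3 with an intensity trend and 2 residual degrees of freedom. Fold changes are on this scale, which understates changes of low genes. DESeq2, the authors' test, needs counts. Per the study, N was 2 per group for the sequencing. The limma fit was tested on simulated data.

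The factors and gene lists were chosen with earlier results of these data known. All 10 factors are named, and of each list the called genes, up to 4 with the highest mean, and the genes of the ratios. Ssbp2, Ssbp3, Ssbp4, Maff, Mafg, Mafk, Alas2, Epor and Itga2b were picked for their role or after their values were seen. Ahsp of the erythroid list was not analysed here. Alternatives were other minimum values, pseudocounts, scalings, voom, no trend, the replicate block, the leading transcript alone and leaving out each library. The crossed pairing was added after seeing the data. Coding lengths and overlaps come from GENCODE vM21.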

Additional observations from a re-analysis of the deposited data

How the results depend on the processing

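No factor was called under any of the 15 alternatives, and over the 14 without the crossed pairing the median log2 fold change of the 10 moved by less than the spread between replicates. Of 140 values of single factors, 129 kept their sign. The sign turned for Nfe2 (-0.19) and Lmo2 (0.16) with the leading transcript alone, for Fli1 (-0.011) without scaling, and otherwise only on leaving out a library. With 1 library left out, the log2 fold change ranged from -0.024 to 0.321 for Gata1, -0.64 to 0.27 for Klf1, -0.001 to 0.26 for Nfe2, -0.059 to 0.19 for Fli1, -0.71 to 0.12 for Gfi1b and -0.494 to 0.077 for Bcl11a. The ratio of Klf1 to Fli1 ranged from -0.577 to 0.075 and that of Gata1 to Spi1 from -0.45 to 0.49 on the log2 scale.

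The number of genes called, 696, became 267 with a minimum mean FPKM of 1, 222 with a pseudocount of 1, 459 with limma voom and 1060 without the intensity trend, and 599 to 1851 with 1 library left out. Under quantile normalization 416 of 662 calls were lower, against 510 of 696. The 16 megakaryocyte calls became 9 without a minimum, 10 with a pseudocount of 1 and 8 without the trend, and 2 to 27 with 1 library left out, while the median of the whole list of 48 genes ranged from -1.27 to -0.30. The partner list had 0 to 1 calls and the erythroid list 0 to 2 with 1 library left out. The leading transcript held 99% (Tal1), 100% (Zfpm1), 37.8% (Ldb1) and 53.1% (Bcl11a) by read equivalents, against 98%, 99.8%, 44.3% and 35.9% by FPKM. The cause of these shifts was not tested.

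The labels number the replicates 1 and 2 in both groups but state no pairing, and across genes the replicate 1 minus 2 differences in Ob and in Ob + Exe correlated at -0.106. The replicate block gave 742 calls, 18 with an adjusted p under 0.05 in limma, 0 of them a factor, and 15 megakaryocyte calls. The crossed pairing, chosen after seeing the data, gave 803 and 11. The factors had 2092 to 18859 read equivalents per library, and 2 libraries per group limit the precision.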
